A study of Mus musculus with 18 samples.

Results

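Fibronectin, periostin, tenascin-C, osteonectin, the thrombospondins 1 and 2, fibulin-2 and the proteoglycans biglycan, decorin and lumican were followed in RNA sequencing counts of mouse cancer cells. These 10 genes (Fn1, Postn, Tnc, Sparc, Thbs1, Thbs2, Fbln2, Bgn, Dcn and Lum) were found by their symbols in both count tables, of 24455 genes in the table of the line 168FARN and 24532 in the table of the line LLC1. A filter on low counts left 9 of the 10 to be tested in each line, with Lum left out in 168FARN and Postn in LLC1. By the study's methods the libraries were made from GFP-tagged cancer cells sorted out of spheroids that had grown in hanging drops and then on a shaker. The labels name the cancer cells as the tagged ones and do not describe the sort, and another passage of the study's text calls the fibroblasts GFP-expressing, so the identity of the sorted cells rests on the methods. 168FARN, a mouse breast cancer line, was grown alone, with WT MMTV-CAFs (cancer-associated fibroblasts from MMTV-PyMT mice carrying the control guide SgNS) or with MMTV-CAFs whose Prrx1 gene, which codes for a homeodomain transcription factor, had been deleted by CRISPR/Cas9 (sgPrrx1). LLC1, a mouse lung cancer line, was grown alone, with WT wound healing fibroblasts (SgNS, from dorsal skin on day 10 after wounding) or with sgPrrx1 wound healing fibroblasts. Each coculture held 3 fibroblasts per cancer cell, and each of the 6 groups had 3 libraries. The cancer cells of all groups carried the GFP tag and no edit, and both kinds of fibroblast in the cocultures had received a guide. Whether the edited fibroblasts were a clone or a pool, how many mice they came from, and whether the 3 libraries of a group came from separate cultures is not stated, so the p-values measure the spread between these libraries, which may be technical.

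The proteins of these genes are secreted into the extracellular matrix around cells. Fibronectin builds the first fibrils on which other matrix proteins are laid down, and periostin, tenascin-C, osteonectin and the thrombospondins are matricellular proteins, which modulate how cells hold on to the matrix and respond to growth factors more than they carry load. Fibulin-2 joins elastic fibres and basement membranes, while biglycan, decorin and lumican are small leucine-rich proteoglycans that bind collagen fibrils and set their spacing. In tumours and in healing wounds most of this matrix is attributed to fibroblasts, and several of these genes are used as signs of an activated fibroblast, so their level in sorted cancer cells bears both on the cells and on what was sorted with them.

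Fn1, Postn, Tnc, Thbs1, Fbln2, Bgn and Dcn were higher in 168FARN with WT MMTV-CAFs than alone and lower with sgPrrx1 than with WT MMTV-CAFs. The promoters of Postn, Tnc, Fbln2 and Bgn are shown, and none was given for Fn1, Thbs1 and Dcn. Each line gives the 250 bases before an annotated start, 5′ to 3′ on the strand of the gene. The sequence is from RefSeq on GRCm38.p6 (the assembly behind mm10), in lower case with an exact match to TATAAA in capitals. They lie at chr3:54360857-54361106 on the plus strand (Postn), chr4:64047016-64047265 on the minus strand (Tnc), chr6:91212514-91212763 on the plus strand (Fbln2) and chrX:73483351-73483600 on the plus strand (Bgn).
Postn: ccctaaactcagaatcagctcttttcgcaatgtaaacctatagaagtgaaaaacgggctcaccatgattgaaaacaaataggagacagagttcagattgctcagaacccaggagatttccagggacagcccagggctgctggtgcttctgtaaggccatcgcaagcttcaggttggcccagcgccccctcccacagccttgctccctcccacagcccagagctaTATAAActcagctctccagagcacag
Tnc: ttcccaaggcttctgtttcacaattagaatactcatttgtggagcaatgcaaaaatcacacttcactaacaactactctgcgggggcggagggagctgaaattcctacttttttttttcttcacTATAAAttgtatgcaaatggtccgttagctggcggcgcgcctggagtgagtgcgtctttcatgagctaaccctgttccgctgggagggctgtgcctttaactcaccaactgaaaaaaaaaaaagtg
Fbln2: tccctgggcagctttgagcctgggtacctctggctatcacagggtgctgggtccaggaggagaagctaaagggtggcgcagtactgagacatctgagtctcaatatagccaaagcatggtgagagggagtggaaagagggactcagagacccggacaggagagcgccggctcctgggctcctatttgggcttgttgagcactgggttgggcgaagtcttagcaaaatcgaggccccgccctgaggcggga
Bgn: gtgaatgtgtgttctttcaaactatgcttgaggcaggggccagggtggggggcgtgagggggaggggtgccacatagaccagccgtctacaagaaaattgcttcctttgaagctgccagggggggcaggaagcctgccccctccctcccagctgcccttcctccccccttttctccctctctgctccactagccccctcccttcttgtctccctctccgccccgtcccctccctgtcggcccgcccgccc

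Promoter windows from 250 bases before to 50 after a start were given for 6 of the 10 genes, and not for Fn1, Thbs1, Dcn and Lum. Both strands were searched for TATAAA (the TATA box), CCAAT (the CCAAT box), TGANTCA (the AP-1 site), TAATTA (a core that homeodomain proteins bind) and TGACGT (part of the CRE site), and no match overlapped another in these windows. Counted from the start, TATAAA began at base -26 of 1 of the 2 Postn windows and at bases -126 and -205 of the 2 Tnc windows, which share most of their sequence. It also lay in the Thbs2 window, on the opposite strand at base -126. Only exact matches were taken, so tatataag in the second Tnc window, which is not shown above, did not count. In all 32851 mouse promoter windows, 13.6% held TATAAA and 37.4% held CCAAT, which occurred at the other Postn start and at Thbs2. TGANTCA was in 7.81%, TAATTA in 5.29% and TGACGT in 7.51% of all windows, and none of these letters stood in a window of the 6 genes. The windows of Fbln2, Bgn and Sparc held none of the 5 motifs.

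The genes lie on 9 chromosomes. On GRCm38.p6 Fn1 spans chr1:71585473-71653280, Thbs1 chr2:118111876-118127133, Postn chr3:54359267-54391041, Tnc chr4:63959785-64047015 and Fbln2 chr6:91212460-91272540. Sparc spans chr11:55394159-55420080, Thbs2 chr17:14665500-14694262 and Bgn chrX:73483601-73495936. Dcn (chr10:97479500-97518163) and Lum (chr10:97565501-97572703) are neighbours with 47337 bases between them.

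The 168FARN libraries held 48315037 to 68933002 counts each and the LLC1 libraries 66129117 to 103997557. Levels are given as CPM, counts scaled to the size of the library with TMM factors. In LLC1 the library of sgPrrx1 replicate 3 stood apart, with a score of 77.8 on the first principal component (59.3% of the variance) against -23.1 to 0.110 in the other 8, so where a call of the 10 genes changed without it, this is given beside the result. Prrx1 itself was deleted in the fibroblasts only and its level here checks no label; it stood at 88.2 ± 1.3 CPM (SD, n = 3) in 168FARN alone, 129 ± 1.32 CPM with WT and 112 ± 1.12 CPM with sgPrrx1 MMTV-CAFs. In LLC1 Prrx1 was at 206 ± 24.5 CPM alone, 218 ± 6.63 CPM with WT and 177 ± 55.6 CPM with sgPrrx1 fibroblasts. Of 9 epithelial markers, 8 averaged under 1 CPM in 168FARN alone, where Krt8 was the exception at 331 ± 12.5 CPM, and all 9 did in LLC1 alone, as did 4 of 5 lung epithelial markers. The 3 tested epithelial markers and both tested mammary markers rose with WT MMTV-CAFs in 168FARN, beside 33.4% of all genes. Krt8 rose to 372 ± 14.3 CPM, Krt19 from 0 to 3.09 ± 0.162 CPM and Cldn4 from 0.164 ± 0.0396 to 0.468 ± 0.141 CPM. Esr1 rose to 2.66 ± 0.350 CPM and Gata3 to 10.7 ± 0.809 CPM. With sgPrrx1 against WT MMTV-CAFs 1 epithelial marker was higher, 1 was lower and both mammary markers were lower. Over all genes 26.9% were higher and 33.1% lower in that comparison. In LLC1 Krt18, the 1 tested epithelial marker, and 1 of 3 tested mammary markers rose with WT fibroblasts, beside 4.25% of all genes. Krt18 reached 0.377 ± 0.0754 CPM. Of 4 immune markers Ptprc, Adgre1 and Cd3e averaged under 1 CPM in all 6 groups. The fourth, Cd68, was lower in both 168FARN cocultures than alone (14.8 ± 1.51 with WT and 14.0 ± 0.559 with sgPrrx1 against 23.9 ± 0.741 CPM) and higher in both LLC1 cocultures (36.6 ± 0.946 and 46.0 ± 15.2 against 16.2 ± 0.704 CPM). The summed level of 4 endothelial markers ran from 0.535 to 0.658 CPM alone to 5.71 to 6.74 with WT and 4.08 to 4.64 with sgPrrx1 in 168FARN, and from 0.0250 to 0.103 to 5.57 to 6.67 and 0.103 to 0.352 in LLC1. Of the 4, only Cdh5 averaged at least 1 CPM in the 168FARN cocultures, and only Kdr did in LLC1 with WT fibroblasts. The part of these markers in the results below was not tested.

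A list of 15 fibroblast markers that holds none of the 10 genes moved with the comparisons. In 168FARN 13 of its 14 tested genes rose with WT MMTV-CAFs and 13 were lower with sgPrrx1 than with WT MMTV-CAFs, where 33.4% of all tested genes rose and 33.1% were lower, and its summed level ran from 265 to 269 CPM alone to 1032 to 1114 CPM with WT and 301 to 309 CPM with sgPrrx1. Col1a2, a chain of type I collagen, went from 0.103 ± 0.0211 CPM alone to 148 ± 7.73 CPM with WT and 12.9 ± 1.57 CPM with sgPrrx1 MMTV-CAFs. Fap was at 0 in both 168FARN cocultures and Thy1 at 0 alone and with sgPrrx1 MMTV-CAFs, and Fstl1 was at 0 alone. In LLC1 Col1a1 and Col1a2 rose with WT fibroblasts and 3 of the 11 tested markers fell (Col3a1, Col6a1 and Pdgfrb). Over all genes 4.25% rose and 4.58% fell there. The sum ran from 2128 to 2240.0 CPM alone to 1593 to 1658 CPM with WT and 1983 to 2112 CPM with sgPrrx1. Most of that sum was Col3a1, at 1579 ± 39.5 CPM alone, 1077 ± 12.3 CPM with WT and 1441 ± 28.2 CPM with sgPrrx1. Thy1 and Fap stayed under 1 CPM in every LLC1 group. What part RNA of fibroblasts that passed the sort had in the results below was not tested. In such bulk samples fewer cells of a type and less RNA per cell cannot be told apart.

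The first question was whether these matrix genes differed in cancer cells grown with WT fibroblasts. In 168FARN 7 of the 9 tested genes rose (Fn1, Postn, Tnc, Thbs1, Fbln2, Bgn and Dcn) and Thbs2 fell, at an adjusted p under 0.05 in edgeR's quasi-likelihood test, where 33.4% of all 13540 tested genes rose and 30.7% fell. The median change over the 9 was 3.83 on the log2 scale, beside 0.01 over all tested genes. In LLC1 5 of the 9 rose (Tnc, Thbs1, Fbln2, Bgn and Dcn) and none fell, against 4.25% and 4.58% of all 12873 tested genes, and the medians were 2.13 and -0.02. Without sgPrrx1 replicate 3, which is in neither group of this comparison but shares the filter, scaling and spread of the fit, the same 5 rose and Fn1, Thbs2 and Lum passed as lower, with 5779 of all genes called in place of 1137.

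The second question was whether the genes differed when the fibroblasts lacked Prrx1. With sgPrrx1 MMTV-CAFs 8 of the 9 genes in 168FARN were lower than with WT MMTV-CAFs and none was higher, where 33.1% of all tested genes were lower and 26.9% higher, and the median difference was -2.04 (log2) against -0.03 over all genes. In LLC1 Fbln2 and Bgn were lower with sgPrrx1 than with WT fibroblasts, 2 of the 7 genes called lower among 12873 (0.0544%), and the median over the 9 was -0.49 against 0.02. Leaving out any 1 of 6 libraries, named with Fbln2 further on, ended the Fbln2 call and left 1 of 9. Without sgPrrx1 replicate 3, 5 of the 9 passed: Thbs1, Fbln2 and Bgn were lower, Fn1 and Thbs2 higher, and 745 of all genes were called. Against cells alone, sgPrrx1 MMTV-CAFs left Tnc, Thbs1, Fbln2, Bgn and Dcn higher and Fn1 and Thbs2 lower in 168FARN, 7 of 9 where 25.7% of all genes were higher and 24.1% lower. In LLC1 Fbln2 and Dcn were higher with sgPrrx1 fibroblasts than alone, 2 of 9 beside 2.01% of all genes higher and 2.31% lower, and Tnc and Thbs1 joined them without replicate 3, where 1640 higher and 1855 lower of all 13088 genes were called. These comparisons share libraries within a line, so a high or low WT group enters both of its comparisons.

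**Figure D1:**
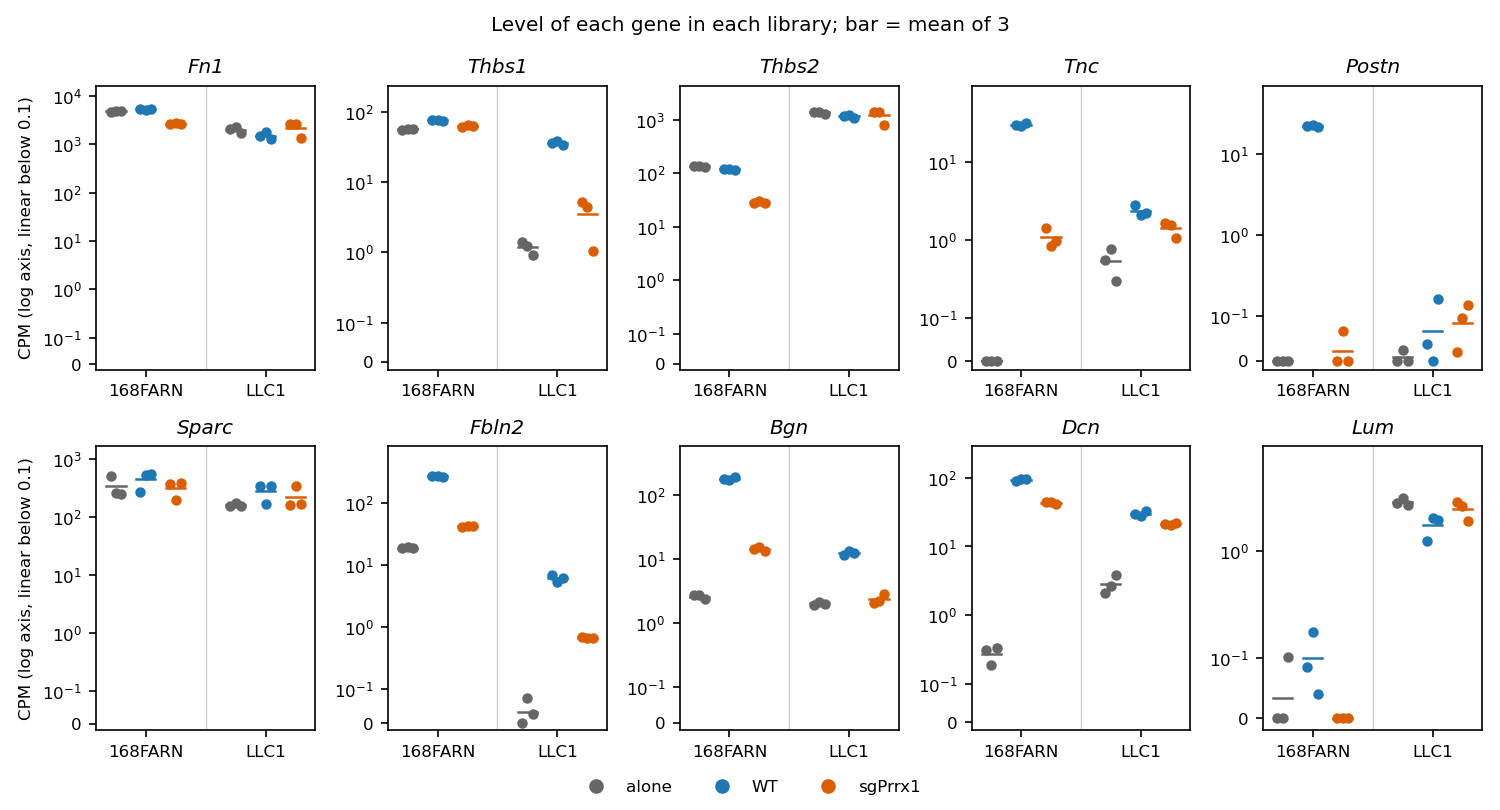
Level of each of the 10 genes in each of the 18 libraries, in CPM on a log axis that is linear below 0.1; points are libraries, bars the mean of 3, grey alone, blue WT and orange sgPrrx1. Postn and Tnc were at 0 in the 3 libraries of 168FARN alone. The 3 WT libraries lay above both other groups for Thbs1, Tnc, Fbln2, Bgn and Dcn in each line.

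Fn1 codes for fibronectin, the fibril-forming glycoprotein that integrins bind. In 168FARN Fn1 stood at 4656, 4839 and 4812 CPM alone, 5269, 5162 and 5357 CPM with WT and 2661, 2753 and 2649 CPM with sgPrrx1 MMTV-CAFs. The 3 groups did not overlap, and the lowest was the sgPrrx1 coculture, below cells alone. The rise with WT was 1.10-fold (0.14 ± 0.02 (SE) on the log2 scale, adjusted p = 6.62e-05), and with sgPrrx1 the level was 51.1% of that with WT (-0.97 ± 0.02 (SE), adjusted p = 1.05e-10) and 56.4% of that alone (adjusted p = 1.29e-10).

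In LLC1 Fn1 stood at 2066, 2224 and 1691 CPM alone, 1465, 1793 and 1256 CPM with WT and 2594, 2569 and 1366 CPM with sgPrrx1 fibroblasts. The lowest sgPrrx1 value was replicate 3, and the groups overlapped. None of the 3 differences passed, with 0.53 ± 0.25 (SE) on the log2 scale for sgPrrx1 against WT (95% interval -0.05 to 1.11, adjusted p = 0.442). Without sgPrrx1 replicate 3 that difference was 0.77 (adjusted p = 0.0332), with Fn1 higher in the sgPrrx1 coculture, and WT against alone was -0.39 (adjusted p = 0.0388). In 168FARN Fn1 was lower in the sgPrrx1 coculture than in the WT coculture, and the change differed between the lines by 1.49 ± 0.28 (SE) on the log2 scale (LLC1 minus 168FARN, adjusted p = 0.00151).

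Thbs1 and Thbs2 code for the trimeric thrombospondins, which inhibit the growth of blood vessels, and thrombospondin-1 can also activate latent TGF-beta. Thbs1 in 168FARN was at 54.4, 56.1 and 56.5 CPM alone, 76.7, 76.8 and 74.3 CPM with WT and 60.2, 64.8 and 62.6 CPM with sgPrrx1 MMTV-CAFs. The groups lay apart but close together, with a rise of 1.36-fold with WT (adjusted p = 5.97e-07) and 82.4% of the WT level with sgPrrx1 (adjusted p = 3.05e-05).

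In LLC1 Thbs1 was at 1.42, 1.22 and 0.911 CPM alone, 35.8, 37.9 and 33.9 CPM with WT and 5.13, 4.38 and 1.06 CPM with sgPrrx1 fibroblasts. The 3 WT libraries were far above the rest, and sgPrrx1 replicate 3 fell within the range of cells alone while the other 2 sgPrrx1 libraries lay above it. The WT coculture was 30.2-fold above cells alone (4.92 ± 0.53 (SE), adjusted p = 0.00261). With sgPrrx1 it was at 9.92% of the WT level (4.57% to 21.6%), which missed the threshold (adjusted p = 0.101). Without replicate 3 the sgPrrx1 minus WT difference was -2.92 on the log2 scale (adjusted p = 5.53e-05) and sgPrrx1 minus alone was 2.01 (adjusted p = 1.32e-04). The rise with WT was larger in LLC1 than in 168FARN by 4.47 ± 0.50 (SE) on the log2 scale (adjusted p = 7.96e-06).

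Thbs2 did not follow Thbs1. In 168FARN Thbs2 was at 135, 135 and 132 CPM alone, 120.0, 119.9 and 115 CPM with WT and 27.5, 30.4 and 28.1 CPM with sgPrrx1 MMTV-CAFs. The sgPrrx1 libraries were the lowest by far, at 24.3% of the WT level and 21.4% of the level alone (adjusted p = 7.37e-11 and 1.39e-11), while WT was 88.1% of alone (adjusted p = 0.00120). In LLC1 Thbs2 was at 1414, 1419 and 1266 CPM alone, 1181, 1214 and 1099 CPM with WT and 1388, 1403 and 813 CPM with sgPrrx1 fibroblasts, where replicate 3 was again the lowest. No LLC1 difference passed, and the 95% interval of sgPrrx1 minus WT ran from -0.40 to 0.49 on the log2 scale. Without replicate 3 Thbs2 was 0.26 higher with sgPrrx1 than with WT (adjusted p = 0.0462) and -0.22 with WT against alone (adjusted p = 0.0111). The sgPrrx1 minus WT change differed between the lines by 2.07 ± 0.22 (SE) (adjusted p = 1.42e-05).

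Tnc codes for tenascin-C, a large glycoprotein of wounds and tumour stroma, and Postn for periostin, which binds tenascin-C and collagen. In 168FARN alone no Tnc read was counted in any of the 3 libraries, and with WT MMTV-CAFs there were 2052, 1929 and 1526 counts (29.2, 28.2 and 31.0 CPM). Against a floor of 3 counts per library this is at least 519-fold higher (adjusted p = 1.82e-09). With sgPrrx1 MMTV-CAFs the counts were 68, 49 and 57 (1.42, 0.819 and 0.965 CPM), 3.57% of the WT level (2.87% to 4.44%, adjusted p = 1.37e-08) and still at least 18.8-fold above cells alone (adjusted p = 6.18e-06).

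LLC1 alone did express Tnc at a low level, 0.549, 0.749 and 0.295 CPM. It was at 2.78, 2.04 and 2.18 CPM with WT and 1.64, 1.53 and 1.06 CPM with sgPrrx1 fibroblasts, with no overlap between any of the 3 groups. The WT coculture was 4.38-fold above cells alone (2.13 ± 0.34 (SE), adjusted p = 0.00968), a call that was lost without LLC1 alone replicate 1 (adjusted p = 0.0532). The sgPrrx1 coculture was 2.66-fold above cells alone at an adjusted p of 0.0565, and 1.58 on the log2 scale without replicate 3 (adjusted p = 0.00792). Between sgPrrx1 and WT the 95% interval ran from 36.5% to 101% of the WT level (adjusted p = 0.416).

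Postn had the lowest share of its WT level with sgPrrx1 MMTV-CAFs among the tested genes in 168FARN. No read was counted in the 3 libraries of cells alone, there were 1552, 1581 and 1050 counts with WT MMTV-CAFs (22.1, 23.1 and 21.3 CPM), and with sgPrrx1 MMTV-CAFs there were 0, 4 and 0 counts. The WT libraries were at least 390.5-fold above cells alone (adjusted p = 6.17e-09) and 927-fold above the sgPrrx1 libraries (exact 95% interval 362 to 3405, for counting error only; adjusted p = 1.34e-08). In LLC1 Postn was nearly absent, with 0, 2 and 0 counts alone, 3, 0 and 12 with WT and 2, 8 and 8 with sgPrrx1 fibroblasts, and it was not tested. The counts summed to 2, 15 and 18, and the ratio of sgPrrx1 to WT was 1.11 (exact 95% interval 0.527 to 2.36).

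**Figure D2:**
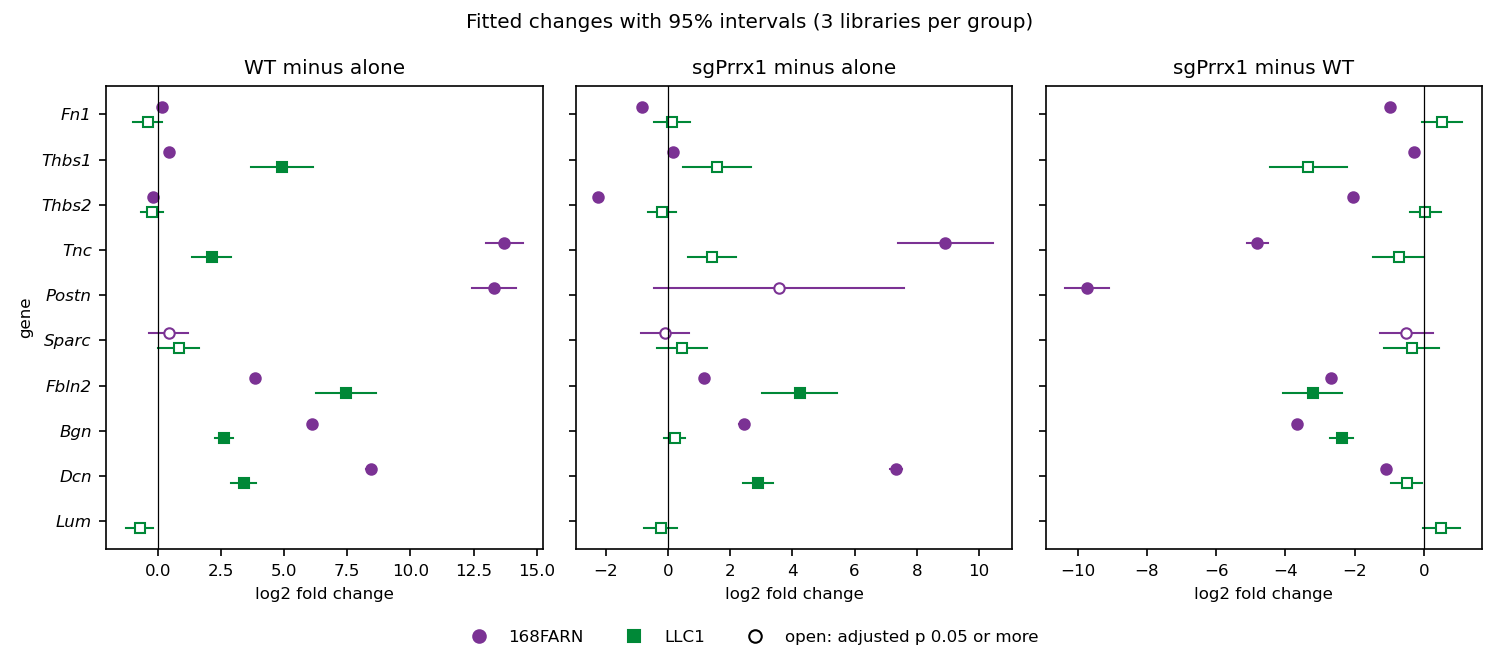
Fitted log2 fold changes of the tested genes with 95% intervals, in 168FARN (circles) and LLC1 (squares), for WT minus alone, sgPrrx1 minus alone and sgPrrx1 minus WT; open marks did not reach an adjusted p of 0.05. The fitted values of Postn and Tnc in 168FARN stand against groups at 0 counts and depend on a small count added by the fit. In the panel of sgPrrx1 minus WT the filled 168FARN points lie left of 0, from -0.28 for Thbs1 to -9.73 for Postn.

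Sparc codes for osteonectin, a calcium- and collagen-binding matricellular protein. Its libraries differed widely within groups. In 168FARN Sparc stood at 504, 254 and 243 CPM alone, 267, 531 and 542 CPM with WT and 367, 194 and 385 CPM with sgPrrx1 MMTV-CAFs. In each group 1 library stood at about a factor of 2 from the other 2, with ratios of highest to lowest of 2.07, 2.03 and 1.98, while the closer pair differed by no more than 1.05-fold. In LLC1 Sparc was at 155, 175 and 153 CPM alone, 343, 168 and 336 CPM with WT and 156, 341 and 168 CPM with sgPrrx1 fibroblasts. The LLC1 cocultures had the same kind of step, with ratios of 2.04 and 2.18, and the cells alone did not.

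The pooled coefficient of variation within groups was 37.7% in 168FARN and 37.4% in LLC1, and among genes with a mean of at least 100 CPM only 7 of 2367 and 54 of 2246 had a larger one (median 2.41% and 14.3%). In 168FARN a ratio of highest to lowest of at least 1.8 in all 3 groups was met by 4 of the 2367 genes, Sparc, Ggta1, Rps27 and Rps27rt, of which the last 3 were named after their values were seen. Rps27 and Rps27rt, which are near copies and may share reads, also met it in LLC1, where Sparc did not.

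The groups overlapped in all 6 Sparc comparisons and none passed the test. The 95% interval of WT minus alone ran from -0.34 to 1.19 on the log2 scale in 168FARN and from 0.00 to 1.62 in LLC1 (adjusted p = 0.309 and 0.205). For sgPrrx1 minus WT the 168FARN interval was -1.27 to 0.26 and the LLC1 interval -1.15 to 0.45, and both include 0 as well as values below -1.

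**Figure D3:**
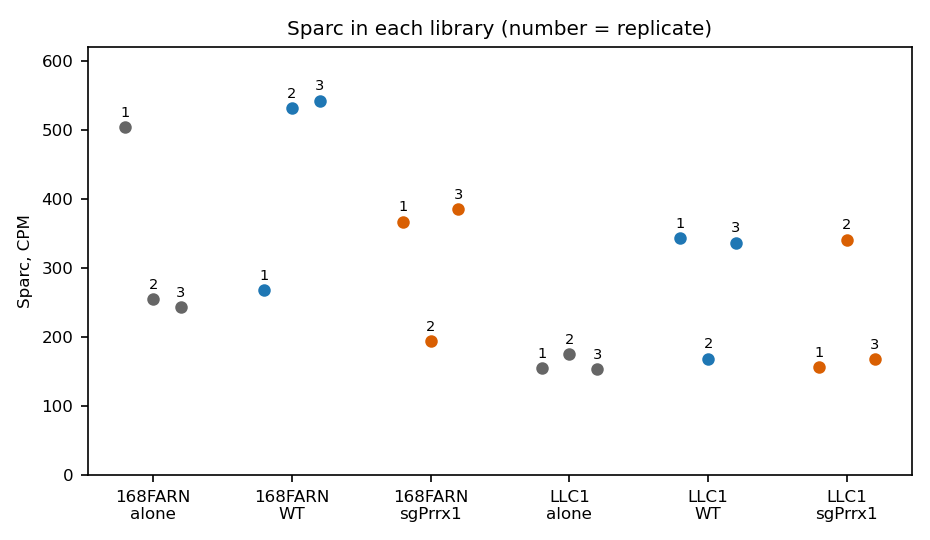
Sparc in each library, in CPM from 0, with the replicate number above each point. In 168FARN alone replicate 1 stands at 504 CPM above 254 and 243, with WT replicate 1 is the low one at 267, and with sgPrrx1 replicate 2 is the low one at 194. In LLC1 replicate 2 is the odd library in both cocultures, the low one with WT at 168 and the high one with sgPrrx1 at 341.

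Fbln2 codes for fibulin-2, which links fibronectin, fibrillin and laminins. In 168FARN Fbln2 stood at 18.5, 19.2 and 18.3 CPM alone, 269.5, 268 and 259 CPM with WT and 41.1, 42.3 and 41.7 CPM with sgPrrx1 MMTV-CAFs. The 3 groups lay far apart, WT 14.2-fold above alone (3.83 ± 0.03 (SE), adjusted p = 1.09e-13). With sgPrrx1 it was at 15.7% of the WT level (adjusted p = 2.74e-12) and 2.23-fold above alone (adjusted p = 3.77e-10).

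In LLC1 Fbln2 was close to absent alone, with 0, 6 and 2 counts, and had 557, 394 and 454 counts (6.92, 5.22 and 6.11 CPM) with WT and 71, 55 and 38 counts (0.669, 0.646 and 0.651 CPM) with sgPrrx1 fibroblasts. No group overlapped another. From the summed counts WT was 183-fold above alone (exact 95% interval 92.4 to 424, adjusted p = 2.98e-04), and sgPrrx1 was 19.7-fold above alone (9.75 to 46.3, adjusted p = 0.00771). With sgPrrx1 the level was 10.8% of that with WT (6.01% to 19.4%, adjusted p = 0.0398). That call was lost without LLC1 alone replicate 3, without any of the 3 WT libraries and without sgPrrx1 replicate 1 or 2, at adjusted p values from 0.0718 to 0.324 and log2 differences from -3.33 to -3.11, and it was kept without sgPrrx1 replicate 3 (adjusted p = 0.00333). The call of sgPrrx1 against alone was lost without LLC1 alone replicate 3 (adjusted p = 0.0502) and with only the groups compared in the fit (adjusted p = 0.104).

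Bgn codes for biglycan, a proteoglycan of the collagen matrix that also signals through Toll-like receptors. In 168FARN Bgn stood at 2.71, 2.74 and 2.37 CPM alone, 178, 171 and 192 CPM with WT and 14.2, 15.2 and 13.5 CPM with sgPrrx1 MMTV-CAFs. WT was 68.9-fold above alone (6.11 ± 0.07 (SE), adjusted p = 5.20e-13), and sgPrrx1 was at 7.94% of WT (adjusted p = 2.96e-11) and 5.47-fold above alone (adjusted p = 6.82e-10).

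Bgn in LLC1 was at 1.95, 2.16 and 1.99 CPM alone, 11.6, 13.3 and 12.3 CPM with WT and 2.04, 2.24 and 2.89 CPM with sgPrrx1 fibroblasts. The WT libraries lay above all others, while the sgPrrx1 libraries overlapped with cells alone. WT was 6.09-fold above alone (2.61 ± 0.15 (SE), adjusted p = 2.20e-04) and sgPrrx1 at 19.3% of WT (-2.38 ± 0.15 (SE), adjusted p = 0.00220, and 2.47e-05 without replicate 3). Between sgPrrx1 and alone the 95% interval ran from -0.11 to 0.57 on the log2 scale (adjusted p = 0.370).

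Dcn codes for decorin, which coats collagen fibrils and binds TGF-beta. In 168FARN it had 15, 12 and 16 counts alone (0.308, 0.187 and 0.329 CPM) and stood at 89.2, 94.1 and 95.1 CPM with WT and 43.9, 44.2 and 41.9 CPM with sgPrrx1 MMTV-CAFs. Both cocultures were far above cells alone, 345-fold with WT (8.43 ± 0.08 (SE)) and 161-fold with sgPrrx1 (7.33 ± 0.09 (SE), adjusted p = 1.41e-13 and 1.48e-12). With sgPrrx1 the level was 46.7% of WT (adjusted p = 1.14e-08).

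In LLC1 Dcn was at 2.10, 2.65 and 3.81 CPM alone, 29.6, 27.3 and 33.3 CPM with WT and 21.5, 20.6 and 22.3 CPM with sgPrrx1 fibroblasts. The cocultures were again both above cells alone, 10.5-fold and 7.51-fold (adjusted p = 2.20e-04 and 7.94e-04). The sgPrrx1 libraries lay below the WT libraries at 71.4% of their level (52.4% to 97.1%), which did not pass (adjusted p = 0.377, and 0.109 without replicate 3).

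Lum, the neighbour of Dcn on chromosome 10, codes for lumican, which regulates the assembly of collagen fibrils. In 168FARN it was near absent, with 0, 0 and 5 counts alone, 6, 12 and 2 with WT and none with sgPrrx1 MMTV-CAFs, and it was not tested. From the summed counts WT was 3.43-fold above alone (exact 95% interval 1.25 to 11.7, counting error only). In LLC1 Lum stood at 2.81, 3.14 and 2.68 CPM alone, 1.23, 2.04 and 1.94 CPM with WT and 2.86, 2.60 and 1.90 CPM with sgPrrx1 fibroblasts. WT was at 60.3% of alone, with libraries that did not overlap and an adjusted p of 0.0928, or 0.0145 without sgPrrx1 replicate 3, and no other Lum difference passed. Dcn at the same locus was 10.5-fold above alone in those WT libraries.

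The genes that rose with WT MMTV-CAFs kept different shares of that level with sgPrrx1 MMTV-CAFs. The share was 0.118% for Postn, which rests on 4 counts with sgPrrx1 MMTV-CAFs, 3.57% for Tnc, 7.94% for Bgn, 15.7% for Fbln2, 46.7% for Dcn, 51.1% for Fn1 and 82.4% for Thbs1. Among fibroblast markers it was 2.08% for Tagln and 3.15% for Acta2, which code for contractile proteins, 6.45% for Col1a1, 8.20% for Fstl1, 8.65% for Col1a2 and 13.7% for Col3a1. It was 19.3% for Dpt, 22.4% for Col6a2, 40.9% for Col5a1, 42.5% for Col6a1 and 74.2% for Pdgfra, and Mfap5, which had also risen with WT, stood at 106% without a call (adjusted p = 0.290). Thy1, the last of the 13, had no count with sgPrrx1 MMTV-CAFs. Bgn lay between Col1a1 and Col1a2, Fbln2 between Col3a1 and Dpt, and Dcn and Fn1 between Col6a1 and Pdgfra. Dcn, although it had risen further from cells alone than Bgn or Fbln2, kept a larger share than either, with 95% intervals that did not overlap. In LLC1 the share was 3.07% for Col1a2 and 7.86% for Col1a1, beside 9.92% for Thbs1, 10.8% for Fbln2, 19.3% for Bgn, 60.7% for Tnc and 71.4% for Dcn, of which Fbln2, Bgn, Col1a1 and Col1a2 passed. Of the 11 tested LLC1 fibroblast markers these 2 collagen chains were called lower with sgPrrx1 than with WT, beside 0.0544% of all genes. None was called higher. The other 9, which had not risen with WT fibroblasts, stood at 84.7% of the WT level (Fstl1) to 219% (Dpt), and the median over the 11 was 0.27 on the log2 scale. The part of these marker changes in those of the matrix genes was not tested.

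**Figure D4:**
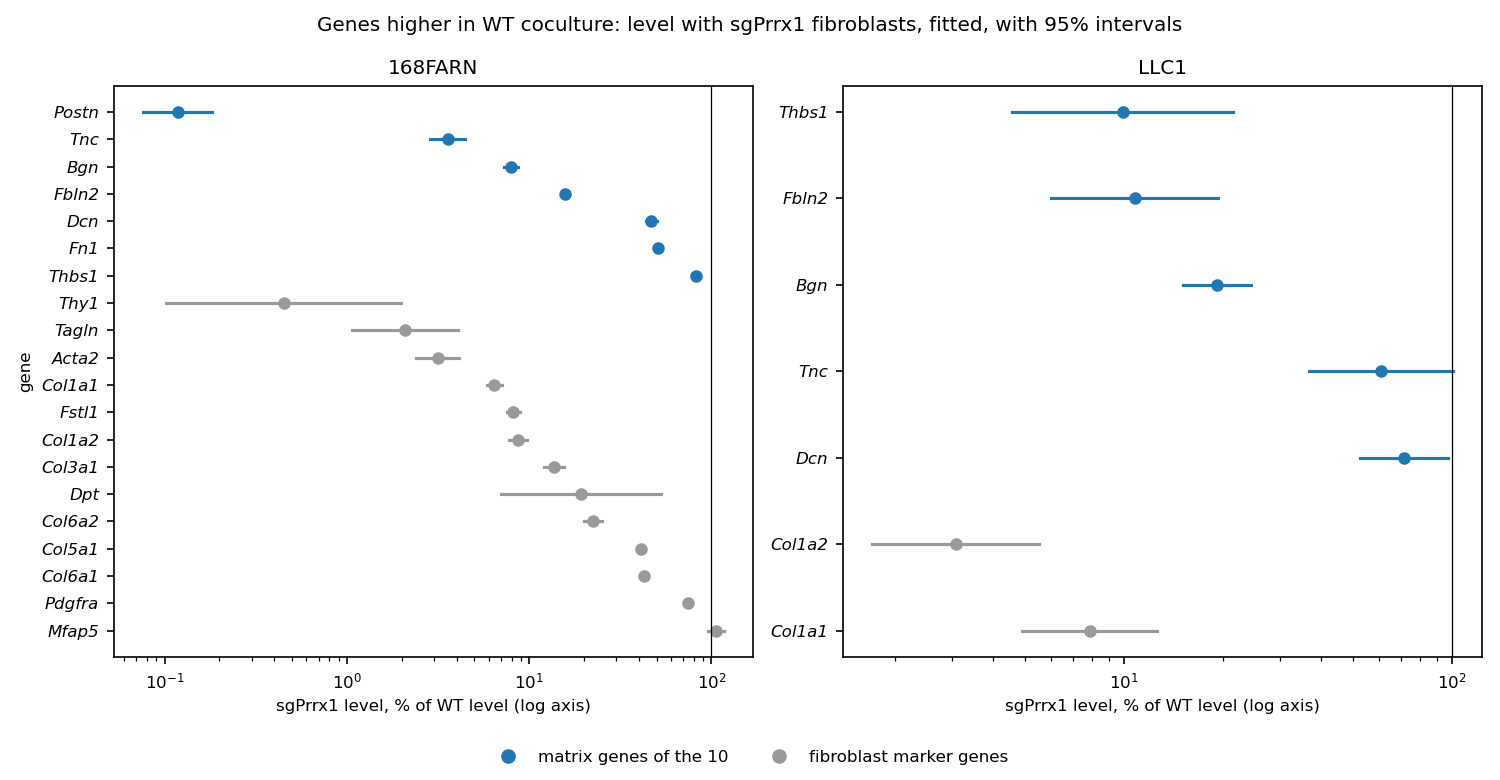
Level with sgPrrx1 fibroblasts as a percentage of the level with WT fibroblasts, fitted, with 95% intervals on a log axis, for the matrix genes (blue) and fibroblast markers (grey) that were called higher with WT fibroblasts than alone, each set in order. In 168FARN the blue points run from 0.118% for Postn to 82.4% for Thbs1. The Postn interval, fitted on 4 sgPrrx1 counts, is narrower than counting error alone allows.

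Levels of different genes were compared per kilobase of exon, with exon lengths from GENCODE vM1. In 168FARN alone Fn1 led at 572 ± 11.9 CPM per kb (SD, n = 3), followed by Sparc at 99.2 ± 43.8, Thbs2 at 22.6 ± 0.336, Thbs1 at 9.17 ± 0.186 and Fbln2 at 3.18 ± 0.0836. With WT MMTV-CAFs Bgn (50.6 ± 2.97), Dcn (47.9 ± 1.62) and Fbln2 (45.2 ± 0.982) moved up to places 3 to 5 behind Fn1 and Sparc. Bgn and Dcn did not differ beyond their spread, and Fbln2 and Dcn changed places when the longest coding transcript was used as the length. With sgPrrx1 MMTV-CAFs Dcn held place 3 at 22.4 ± 0.657 CPM per kb, and Thbs1, Fbln2, Thbs2 and Bgn followed between 4.01 and 10.3.

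LLC1 had another order. Fn1 (239 ± 32.8 CPM per kb) and Thbs2 (230.5 ± 14.6) led in cells alone with values that overlapped between libraries, and Sparc followed at 47.8 ± 3.67. Dcn (1.47 ± 0.452) and Lum (1.39 ± 0.115) came next and did not differ beyond their spread, ahead of Bgn, Thbs1, Tnc, Fbln2 and Postn, all under 1 CPM per kb. With WT fibroblasts Dcn rose to 15.5 ± 1.56 and Thbs1 to 5.90 ± 0.323, places 4 and 5, and Thbs2 and Fn1 overlapped again at the top.

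**Figure D5:**
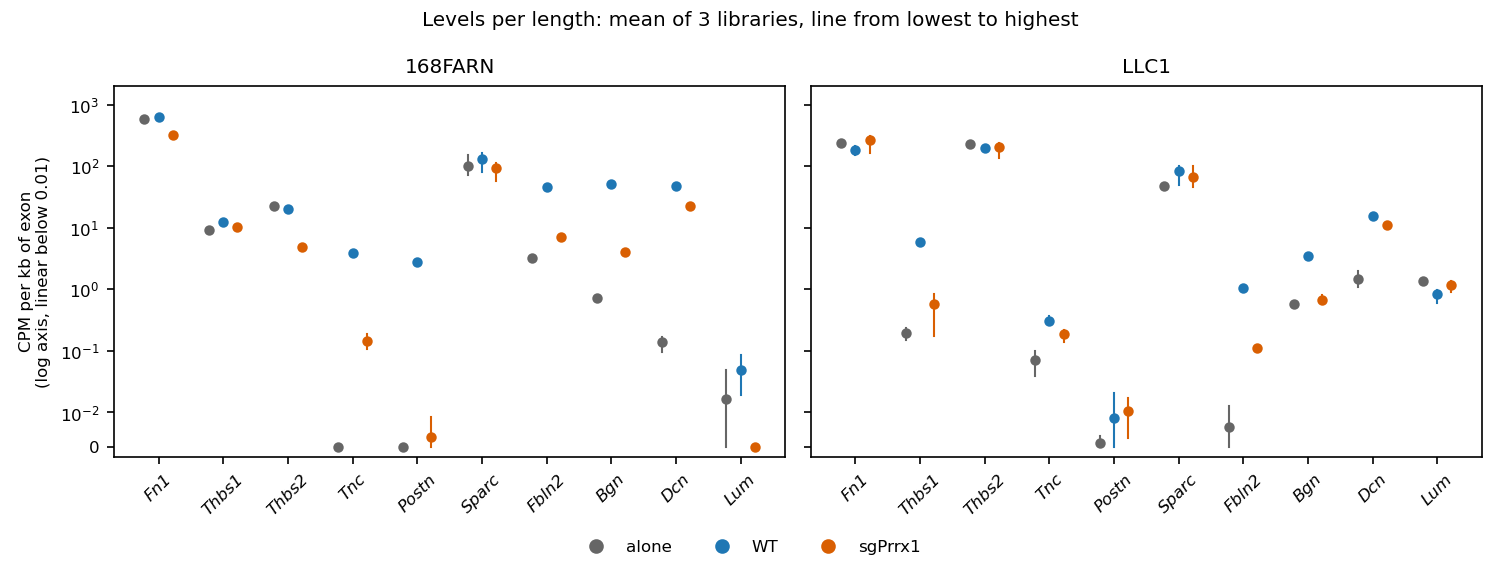
Levels per length of the 10 genes in each group, in CPM per kilobase of exon on a log axis that is linear below 0.01; points are means of 3 libraries and lines run from the lowest to the highest library. Thbs2 stands near Fn1 in LLC1, at 230.5 and 239 in cells alone, and far below it in 168FARN.

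In a joint fit of all 18 libraries, cells alone differed between the lines for 9 of the 10 genes, where 71.0% of all 14341 tested genes did. Thbs2 was 3.45 ± 0.17 (SE), Dcn 3.51 ± 0.23 (SE), Lum 6.54 ± 0.65 (SE) and Tnc 8.23 ± 0.92 (SE) higher in LLC1 on the log2 scale, the last against a group at 0 counts. Fbln2 differed by -8.95 ± 0.28 (SE), Thbs1 by -5.45 ± 0.40 (SE) and Fn1 by -1.15 ± 0.20 (SE), all lower in LLC1 (adjusted p = 6.72e-13, 9.72e-09 and 8.92e-05). Lum had 0, 0 and 5 counts in 168FARN alone and Fbln2 0, 6 and 2 in LLC1 alone, so these sizes rest on few counts. Sparc (-0.94, adjusted p = 0.0452) and Bgn (-0.25, adjusted p = 0.0497) passed narrowly. Without 168FARN alone replicate 1 Sparc was at -0.52 (adjusted p = 0.267), and among fits with a library left out its call held only without 168FARN alone 2 or 3, 168FARN WT 1, 168FARN sgPrrx1 2, LLC1 WT 2 or any LLC1 sgPrrx1 library. With a library left out the Bgn call held only without 168FARN alone 3 or LLC1 sgPrrx1 1 or 3. It was also lost with RLE scaling (adjusted p = 0.0625), with no filter beyond 1 count (adjusted p = 0.0855) and with limma voom (adjusted p = 0.126), and that of Sparc with no filter (adjusted p = 0.0552). Line and table cannot be told apart here.

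Line, kind of fibroblast and table cannot be told apart in the responses. The response to WT fibroblasts differed between the lines for 5 of the 10 genes and the sgPrrx1 minus WT change for 7, where 29.4% and 19.3% of all tested genes differed. The rise with WT fibroblasts was larger in 168FARN for Dcn (difference -5.02 ± 0.28 (SE), adjusted p = 6.97e-09), Bgn (-3.50 ± 0.15 (SE), adjusted p = 6.60e-10) and Tnc (-11.78, fitted against a group at 0). It was larger in LLC1 for Fbln2 (3.61 ± 0.38 (SE), adjusted p = 4.95e-06, from 0, 6 and 2 counts in LLC1 alone) and Thbs1. The sgPrrx1 minus WT change of Bgn was more negative in 168FARN by 1.25 ± 0.14 (SE) (adjusted p = 2.97e-05). For Dcn and Fbln2 that difference was 0.59 ± 0.22 (SE) and -0.55 ± 0.24 (SE) and did not pass (adjusted p = 0.0756 and 0.128), with 95% intervals of 0.12 to 1.06 and -1.07 to -0.04. Both passed without LLC1 sgPrrx1 replicate 3, where 8 and 9 of the 10 genes were called in place of 5 and 7 (adjusted p = 0.0239 and 0.0230). The genes that joined for WT against alone were Fn1, Postn and Lum (adjusted p = 0.00527, 0.0354 and 0.0489), beside 7668 of all 14614 genes, and 6510 for sgPrrx1 against WT.

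Genes of the same families and their partners were taken from 5 lists. Of the other matricellular proteins (20 listed, 11 tested in 168FARN), 7 rose and 3 fell with WT MMTV-CAFs, and 9 were lower and 1 higher with sgPrrx1 than with WT, beside 33.4% rising and 30.7% falling, and 33.1% lower and 26.9% higher, over all genes tested. Ccn2, a growth factor-binding matricellular protein, was at 0 in cells alone, 5.13 ± 0.286 CPM with WT and 0.249 ± 0.0473 CPM with sgPrrx1 MMTV-CAFs. Ccn4 went from 0.0378 ± 0.0415 to 5.39 ± 0.274 and 0.670 ± 0.218 CPM, and Tnn, a relative of Tnc, rose by 2.7 ± 0.15 (SE) on the log2 scale with WT. Sparcl1, a relative of Sparc, was lower with sgPrrx1 MMTV-CAFs than alone by -2.66 ± 0.09 (SE). In LLC1, where 14 were tested, Ccn1 fell with WT fibroblasts (-0.61 ± 0.12 (SE), adjusted p = 0.0216) and 1 other gene of the list rose, beside 4.25% higher and 4.58% lower over all genes. Without sgPrrx1 replicate 3, 6 of 14 (3 higher and 3 lower) were called, beside 2880 higher and 2899 lower of all 13088 genes.

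Among the other fibulins and relatives, the 3 tested in 168FARN all rose with WT MMTV-CAFs and all were lower with sgPrrx1, beside 33.4% and 33.1% of all genes. Fbln1 was at 0 in cells alone, 10.6 ± 0.551 CPM with WT and 0.734 ± 0.262 CPM with sgPrrx1, and Efemp2, which is needed for elastic fibre assembly, rose by 5.98 ± 0.11 (SE) and was lower by -2.84 ± 0.08 (SE) with sgPrrx1 than with WT. In LLC1 Fbln1 was expressed in cells alone and fell with WT fibroblasts, from 75.4 ± 4.66 to 55.8 ± 2.34 CPM (adjusted p = 0.0283), while Fbln2 rose there. Of 13 other small leucine-rich proteoglycans 4 were tested in 168FARN and 5 in LLC1. In 168FARN Ogn fell with WT MMTV-CAFs (-1.94 ± 0.12 (SE)) and Podnl1 rose (0.85 ± 0.06 (SE)). In LLC1 none of the 5 passed with WT fibroblasts in edgeR's test (3 at an unadjusted p under 0.05, 0 called by DESeq2 and 4 by limma voom, which called 2276 and 7549 of all 12873 genes), and without sgPrrx1 replicate 3 it called 4 of 6 (3 higher and 1 lower), beside 5779 of all 13088.

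All 12 tested of 16 receptors of these proteins changed with WT MMTV-CAFs in 168FARN, 9 up and 3 down with a median of 0.31 (log2), beside 64.1% of all tested genes called. Itgb5, an integrin chain, rose by 0.88 ± 0.04 (SE) and Itga8, a chain of an integrin that binds fibronectin and tenascin-C, fell by 1.09 ± 0.05 (SE) on the log2 scale. With sgPrrx1 against WT 9 were lower and 3 higher, beside 33.1% and 26.9% of all genes, among them Itgb1, the common beta chain, at -0.62 ± 0.03 (SE) and Lrp1, an endocytic receptor for thrombospondins, at -0.60 ± 0.03 (SE). In LLC1 Lrp1 (-0.60 ± 0.13 (SE)) and Sdc4, a syndecan that binds fibronectin (-0.34 ± 0.08 (SE)), fell with WT fibroblasts and 1 of the 11 tested rose, beside 4.58% falling and 4.25% rising over all genes. Without sgPrrx1 replicate 3 the calls were 8 of 11 (3 higher and 5 lower), where 5779 of all 13088 genes were called.

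Of 16 matrix assembly and processing partners tested in 168FARN, 13 rose and 3 fell with WT MMTV-CAFs, and 15 were lower and none higher with sgPrrx1, beside the same 33.4% and 30.7%, and 33.1% and 26.9%, over all genes. Lox, the enzyme that crosslinks collagen and elastin, went from 0.216 ± 0.107 CPM alone to 52.7 ± 1.47 with WT and 5.04 ± 0.568 with sgPrrx1 MMTV-CAFs. Fbn1, which forms microfibrils, rose by 6.69 ± 0.12 (SE) and Vcan, a proteoglycan that binds fibulins, by 6.58 ± 0.17 (SE). In LLC1 2 of 15 rose and 3 fell with WT fibroblasts, beside 4.25% and 4.58% of all genes, and 11 of 15 (4 higher and 7 lower) were called without sgPrrx1 replicate 3, beside 2880 higher and 2899 lower of all 13088 genes. Tgm2, a crosslinking transglutaminase, fell by 0.95 ± 0.12 (SE) and Hspg2, the basement membrane proteoglycan perlecan, by 0.79 ± 0.18 (SE) on the log2 scale. Between sgPrrx1 and WT in LLC1 no gene of the 5 lists passed edgeR's test, where 4 of the other matricellular proteins, 1 of the fibulins, 0 of the proteoglycans, 4 of the receptors and 6 of the assembly partners had an unadjusted p under 0.05. DESeq2 called 2, 0, 0, 0 and 3 of them, and limma voom 5, 1, 0, 5 and 9. Without LLC1 sgPrrx1 replicate 3 edgeR called 2, 0, 0, 1 and 3. Over all genes DESeq2 called 501 and limma voom 4681 of 12873, and edgeR without that library 745 of 13088.

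The genes most like each of the 10 over the 9 libraries of a line were sought among genes with a mean of at least 100 counts, by Pearson's r of log2(CPM + 0.5). With 3 groups that differ this much, many genes reach a high r, and the points share their library and depth. In 168FARN Bgn was most like Rnase4 (r = 0.999), Sirpa (r = 0.999) and Egr1 (r = 0.999), and Fbln2 most like Ccn1 (r = 0.999), Loxl2 (r = 0.999) and Igfbp7 (r = 0.999). Postn was most like Pygl (r = 1.000), Col5a1 (r = 0.998) and Tmsb4x (r = 0.998), and Tnc like Igfbp7 (r = 0.999), Map4 (r = 0.998) and Tmem45a (r = 0.998). Dcn, which stayed high with sgPrrx1 MMTV-CAFs, was most like Rgs16 (r = 0.999), Sgk1 (r = 0.999) and Hbegf (r = 0.998). In LLC1 the likest genes of Bgn were Col1a1 (r = 0.992), Col1a2 (r = 0.991) and Kdr (r = 0.985), those of Fbln2 Dennd10 (r = 0.984), Col1a2 (r = 0.981) and Pdpn (r = 0.979), and those of Thbs1 Tes (r = 0.992), Riok2 (r = 0.981) and Lif (r = 0.981). For Sparc the highest r was 0.908 with Vps4a in 168FARN and 0.903 with Ppt1 in LLC1.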

How the data were processed

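RNA sequencing libraries of cells sorted from spheroids, by the study's methods GFP-tagged cancer cells, were analysed, 9 of 168FARN and 9 of LLC1 in 3 groups each. The deposited files hold whole-number counts per gene, which the authors made by trimming reads with Trimmomatic, aligning them to mm10 with STAR and counting with HTSeq. The study's methods then name a batch correction with ComBat-seq after a sentence on human samples, and whether it was applied to these counts is not stated. Whether strand and read pairs were used in counting is not given in the sources used here, so genes that overlap or have near-identical copies are uncertain. Groups and replicate numbers came from the sample labels.

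Counts were tested with edgeR 4.0.16 (R 4.3.3) by its quasi-likelihood test with TMM scaling, its default filter on low counts and Benjamini-Hochberg adjustment over all genes tested, at 0.05. Each line was fitted with its 9 libraries (13540 and 12873 genes) and a joint fit of 18 libraries (14341 genes) gave the baseline and the differences between lines. Total counts of 48315037 to 103997557 per library set the counting precision, and the spread between libraries of a group was above it: edgeR's common biological coefficient of variation came to 0.0728 for 168FARN and 0.228 for LLC1. Counting intervals are exact at 95% and, like the floor of 3 counts per library, cover counting error only. The fits were tested on simulated data with known changes.

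The 10 genes and the lists were chosen with earlier results of these data known. Named were the 10 genes, Prrx1, marker genes, up to 3 genes per list and comparison with the largest log2 fold change past the threshold and a mean of at least 100 counts, and the 3 likest genes. Alternatives were another scaling (RLE or library totals), another filter, the replicate number as a block, limma voom 3.58.1 with quality weights, DESeq2 1.42.0, only the groups compared, and each library left out in turn. Same-numbered libraries deviated together in every pair (r of 0.208 to 0.634) only between LLC1 alone and LLC1 with sgPrrx1 fibroblasts, where the block changed no call of the 10 genes. A comparison of the protein sequences is not reported here.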

Additional observations from a re-analysis of the deposited data

Results flagged for a closer look

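The response to WT fibroblasts or to Prrx1 loss differed between the lines, by an interaction term in the joint edgeR fit, for the values that follow, each on the log2 scale as LLC1 minus 168FARN. For WT against alone the difference was 4.47 for Thbs1 (adjusted p = 7.96e-06), 3.61 for Fbln2 (adjusted p = 4.95e-06), -3.50 for Bgn (adjusted p = 6.60e-10) and -5.02 for Dcn (adjusted p = 6.97e-09). For Tnc it was -11.78 (adjusted p = 3.02e-07), a value that depends on the count the fit adds, since 168FARN alone had no Tnc count.

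For sgPrrx1 against WT the difference was 1.49 for Fn1 (adjusted p = 0.00151), -3.05 for Thbs1 (adjusted p = 3.80e-04), 2.07 for Thbs2 (adjusted p = 1.42e-05), 1.25 for Bgn (adjusted p = 2.97e-05) and 4.07 for Tnc (adjusted p = 1.34e-05). It was 9.91 for Postn (adjusted p = 3.45e-04) and 6.30 for Lum (adjusted p = 0.0152), which had 15 Postn counts in all 3 LLC1 WT libraries and 20 Lum counts in all 3 168FARN WT libraries, so these fitted values are no measure of size. The lines also differ in the fibroblasts they were grown with, and these cannot be told apart.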

How the results depend on the processing

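In 168FARN the calls of the 10 genes kept their direction and their side of the threshold for WT against alone and sgPrrx1 against WT under every alternative, apart from genes that a stricter filter left untested. In LLC1 the number called depended on the fit, and the cause was not tested. For WT against alone it was 5 in the reported fit, 9 with limma voom and 6 with DESeq2. It was 8 with only the groups compared, and 4 to 8 with a library left out. For sgPrrx1 against alone it was 2, and 5 with limma voom, 4 with DESeq2, 1 with only the groups compared and 1 to 4 with a library left out. For sgPrrx1 against WT it was 2, and 8 with limma voom and 3 with DESeq2. It was 1 with at least 10 counts in every library, where Fbln2 is not tested, and 1 to 5 with a library left out. The differences between lines for WT against alone numbered 5, and 8 with limma voom, 5 to 8 with a library left out and 3 of 6 tested with at least 10 counts in every library; for sgPrrx1 against WT they numbered 7, and 4 of 6 tested under that filter.

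Over all genes the LLC1 calls were 1137, 556 and 7 (WT against alone, sgPrrx1 against alone, sgPrrx1 against WT), 7549, 6183 and 4681 with limma voom, 2276, 1944 and 501 with DESeq2, 5167, 27 and 11 with only the groups compared, and 273 to 5779, 52 to 3495 and 3 to 745 with a library left out. With at least 10 counts in every library the last was 2. The differences between lines were 4220 and 2772 over all genes, 8697 and 7879 with limma voom, and 7668 and 6510 without LLC1 sgPrrx1 replicate 3.

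Signs changed only for values that did not pass in the reported fit. With a library left out, sgPrrx1 minus alone ran from -0.268 to 0.339 for Sparc in 168FARN, above 0 without alone 1 or sgPrrx1 2, and in LLC1 from -0.0189 to 0.382 for Fn1 and from -0.312 to 0.0385 for Thbs2. In LLC1 sgPrrx1 minus WT ran from -0.0819 to 0.256 for Thbs2. The difference between lines for WT minus alone ran from -0.0325 to 0.668 for Sparc and from -0.0863 to 0.00334 for Thbs2, and that for sgPrrx1 minus WT ran from -0.327 to 0.406 for Sparc, which was -0.0894 with limma voom.

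With the replicate number as a block, LLC1 sgPrrx1 against WT had 1 call among the 10 genes, since Fbln2 was lost (adjusted p = 0.166), and 2 over all genes. The difference of Fn1 between lines for WT against alone passed (adjusted p = 0.0263), and the block changed no other call of the 10 genes in the comparisons it was run for. Cells alone of the lines were not compared under it, since the blocks lie within a line. Postn in LLC1 and Lum in 168FARN had at most 18 and 20 counts in a group, which limits what can be said of their changes.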
